A study of Mus musculus with 30 samples.

Results

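The nuclear oxidative phosphorylation genes described here are 88 of the 32285 genes counted in the mouse single-cell data. They were taken by symbol: every gene whose name begins with Ndufa, Ndufb, Ndufc, Ndufs, Ndufv, Uqcr, Cox4, Cox5, Cox6, Cox7, Cox8 or Atp5, without pseudogene names and without Cox6a2. By their names, 38 belong to complex I, 8 are complex I assembly factors (Ndufaf genes), 8 belong to complex III, 17 to complex IV and 17 to complex V. Of the 88, 3 had no UMI in any cell kept and 6 had fewer than 100 UMIs, those 3 included.

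Oxidative phosphorylation is carried out in the inner mitochondrial membrane. Complexes I, III and IV pass electrons from NADH to oxygen and pump protons, and complex V, the ATP synthase, uses the proton gradient to make ATP. Nearly all subunits are encoded in the nucleus and imported, while a small set of core subunits of the same complexes is transcribed from mitochondrial DNA, so each complex is assembled from both genomes. Plasma cells, dividing lymphocytes and erythroid precursors are known for a high demand for mitochondria, and red pulp macrophages for clearing old red cells.

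The study compared mice labelled Smc3-WT with mice labelled Smc3-cKO, a conditional knockout of Smc3, a subunit of the cohesin ring that shapes chromatin loops. Red-cell-depleted splenocytes were profiled with a Chromium Single Cell 3′ kit in 2 libraries of each genotype, 4 of the 30 samples in the series, and the other 26 were not analysed here. The labels name neither the Cre driver nor the alleles, and whether a library came from 1 mouse or several is not given; the ages of 6 to 8 weeks in the protocol are those of the sorted dendritic cell populations. P-values therefore measure the spread between libraries, which may be technical.

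The libraries held between 9074 and 16096 barcodes and between 40367056 and 51299056 UMIs, and any 2 of them shared between 36 and 61 barcode sequences, at most 0.432% of the smaller one. After removal of cells with fewer than 200 genes, over 10% mitochondrial UMIs or a doublet call, 44803 cells remained. Cells were assigned to classes by counting detected marker genes, and 43055 passed a gate; the class names below are the names of those gates. Each gate's summed markers were higher than in other classes in every library, with 3 exceptions: classical monocyte markers reached 6263 CPM in neutrophils, cycling markers 4578 CPM in erythroid cells, and the cDC2 markers (836 to 1458 CPM in cDC2) reached 1447 CPM in red pulp macrophages. The 3′ counts of Smc3 itself gave 107, 90.2, 111 and 108 CPM in cDC2, not lower in the libraries labelled Smc3-cKO. In B cells they gave 109.5, 107, 97.0 and 109.5 CPM, where Smc3-cKO replicate 1 was lowest and the genotypes overlapped. In cDC1 Smc3 gave 55.6, 107, 139 and 148 CPM and in all cDC together 78.7, 97.4, 121 and 112 CPM. Both Smc3-cKO libraries thus lay above both Smc3-WT libraries in cDC1, in cDC2 and in all cDC, against the direction that the label implies. Which part of the gene is deleted is not given in the sources used here, so these 3′ counts do not check the labels, and the genotypes below are those the labels give.

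All levels are given in CPM, the UMIs of a gene or gene group per 1000000 UMIs of that class in that library. Lists of 4 values follow 1 order throughout: Smc3-WT replicate 1, Smc3-WT replicate 2, Smc3-cKO replicate 1, Smc3-cKO replicate 2.

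Smc3-WT replicate 1 had the lowest level of these genes in most classes. In B cells, the class with most cells, the 88 genes together made up 4444, 7378, 5510 and 6686 CPM. Smc3-WT replicate 1 was lowest and Smc3-WT replicate 2 highest, so both Smc3-cKO libraries lay between the libraries of the other genotype. Of 13 classes compared in this way, Smc3-WT replicate 1 was lowest in 11, the exceptions being red pulp macrophages and neutrophils. In B, cycling B, CD4 T, CD8 T, NK, cDC1 and pDC cells, both libraries numbered replicate 1 lay below both numbered replicate 2. Values of the genotypes overlapped in all 13 classes for the 88 genes together. By complex there were exceptions: complex III in cDC2 gave 460, 818, 922 and 829 CPM, higher in both Smc3-cKO libraries, and in neutrophils it gave 738, 682, 610 and 450 CPM, lower in both. Complex V in neutrophils gave 2166, 2516, 2055 and 1685 CPM, also lower in both. The assembly factors were higher in both Smc3-cKO libraries in cDC2 (165, 185, 222 and 191 CPM) and in classical monocytes (107, 141, 159 and 157 CPM). Among same-numbered libraries, Smc3-cKO replicate 1 was above Smc3-WT replicate 1 in 12 classes, while Smc3-cKO replicate 2 was above Smc3-WT replicate 2 in 2.

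The low value of that library was spread over many genes. Among the 81 members with a mean of at least 5 CPM in B cells, 70 (86.4%) had their lowest value in Smc3-WT replicate 1, against 31.5% of all 9650 genes at that level. Ndufa4 had the widest range of all members in B cells, with 72.3, 233, 87.0 and 223 CPM. It was low in both replicates numbered 1 and high in both numbered 2, whatever the genotype. Ndufa4 was named as a complex I subunit and is now known as a component of cytochrome c oxidase, complex IV. Cox8a, a small complex IV subunit, gave 85.2, 245, 130 and 164 CPM in B cells, and Atp5e, the epsilon subunit of the ATP synthase, gave 130, 323, 244 and 286 CPM. For both genes Smc3-WT replicate 1 was lowest and Smc3-WT replicate 2 highest.

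Other members hardly moved. Atp5f1, a stalk subunit of the ATP synthase, gave 119, 123, 122 and 124 CPM in B cells, a highest-to-lowest ratio of 1.04. Ndufs4, a complex I subunit known from mouse models of mitochondrial disease, gave 151, 157, 151 and 165 CPM. Uqcrc2, a core protein of complex III, gave 74.4, 77.6, 78.0 and 83.0 CPM, and Ndufv2, which carries an iron-sulphur cluster of complex I, gave 68.5, 58.8, 68.4 and 61.0 CPM. The libraries thus differed widely in some subunits of a complex and hardly in others. Over the complexes, the median highest-to-lowest ratio in B cells was 1.67 for complex I (37 genes), 1.62 for complex III (8 genes), 1.95 for complex IV (11 genes) and 1.86 for complex V (17 genes), and 1.39 for the 8 assembly factors. It was 1.32 over all 9650 genes.

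**Figure D1:**
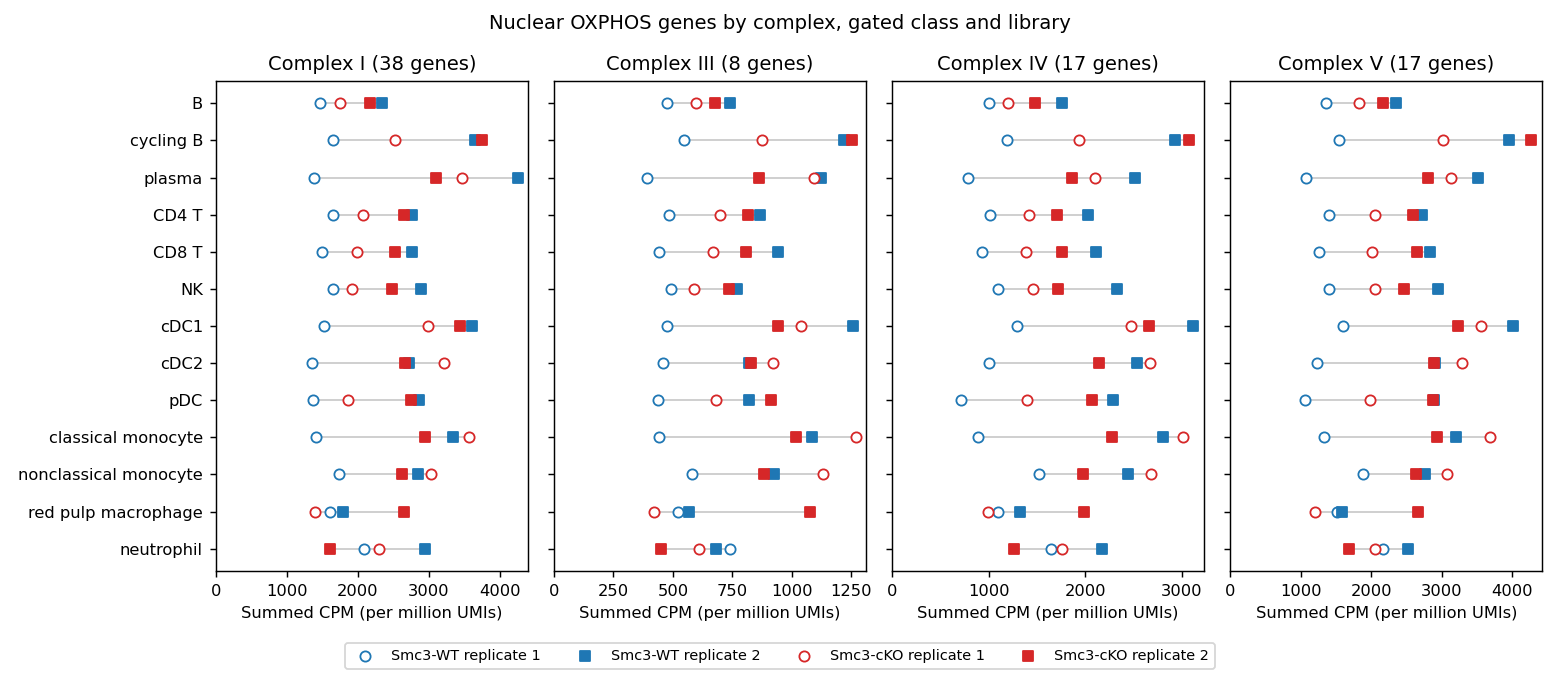
Summed level of the genes of each complex in 13 gated classes; the x axis gives CPM (scaled to the UMIs of that class and library) and each point is 1 library, with a line from the lowest to the highest. Smc3-WT replicate 1 (open blue circles) is the lowest point of complex I in every class except red pulp macrophages and neutrophils, and the genotypes overlap in every panel except complex III in cDC2 and in neutrophils and complex V in neutrophils.

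Other gene groups moved with the members across these libraries. In B cells, cytosolic ribosomal protein genes summed to 52795, 123190, 76040 and 94043 CPM, in the same order of libraries as the 88 genes. The mitochondrially encoded subunits of the same complexes ran in the opposite order, at 66423, 36017, 52525 and 43567 CPM, and were highest in the library where the nuclear-encoded subunits were lowest. Mitochondrial ribosomal protein genes gave 1663, 2395, 1899 and 2246 CPM. Nuclear genes of complex II, which the name rule leaves out, gave 343, 379, 372 and 420 CPM, and genes of the tricarboxylic acid cycle gave 927, 1003, 999 and 1080 CPM, both with a narrower range. Malat1, a nuclear RNA, gave 22795, 18343, 18299 and 14429 CPM, and haemoglobin transcripts in B cells gave 13141, 608, 2392 and 125 CPM. The share of barcodes over 10% mitochondrial UMIs, which were removed, was 24.0%, 2.57%, 21.0% and 3.73%. The part that RNA quality, as the mitochondrial share reflects it, and free haemoglobin RNA had in the members' values was not tested.

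**Figure D2:**
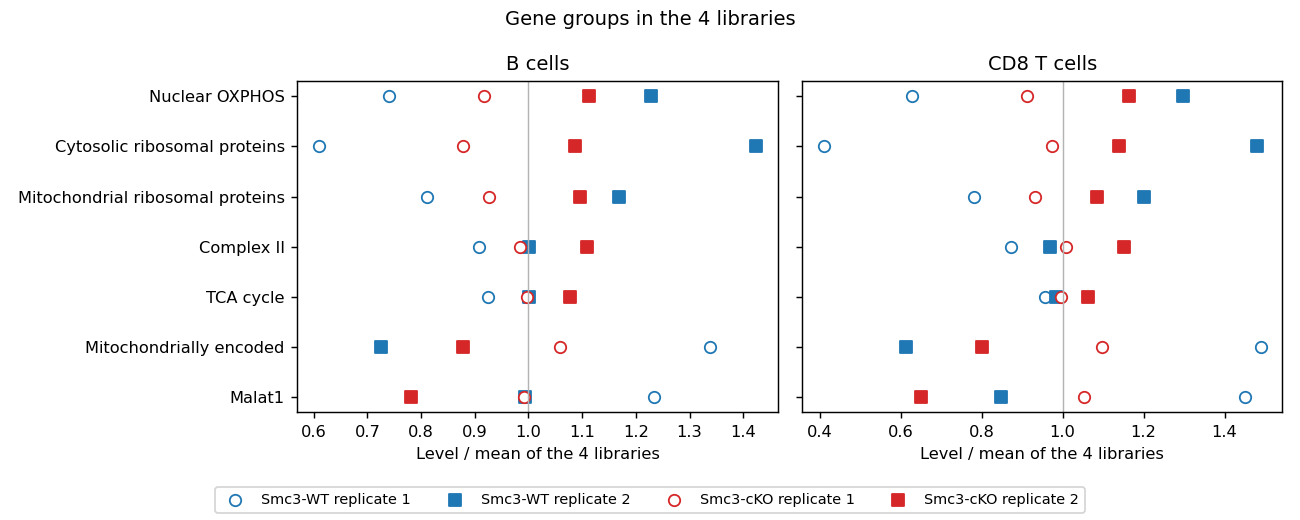
Level of 7 gene groups in B cells (left) and CD8 T cells (right), each divided by the mean of the 4 libraries on the x axis; each point is 1 library. The nuclear oxidative phosphorylation genes run from Smc3-WT replicate 1 (4444 CPM in B cells) to Smc3-WT replicate 2 (7378 CPM), cytosolic ribosomal protein genes run the same way, and mitochondrially encoded genes run the opposite way.

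Classes were first compared within libraries, since the 2 Smc3-WT libraries differed widely. Each test set the class sums of a library against each other with the library as a block (edgeR's quasi-likelihood test, Benjamini-Hochberg adjustment over all genes tested, threshold 0.05). A log2 change is on the scale of that fit. It compares shares of the UMIs, and fewer transcripts per cell and a larger pool of other transcripts cannot be told apart in it. edgeR shares its estimate of the spread over all genes tested, so a very small p does not rest on that gene's libraries alone.

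Plasma cells had higher levels of many members than B cells. Of 82 members tested, 41 rose and 0 fell, where 13% of all 12899 genes tested rose and 17.2% fell. The median log2 change was 0.72 over the members and -0.23 over all genes. By complex, 17 of 37 genes of complex I, 5 of 8 of complex III, 8 of 12 of complex IV and 11 of 17 of complex V rose, but none of the 8 assembly factors passed the test. Among these, Ndufaf6 was at -1.57 (SE 0.71, edgeR adjusted p = 0.0803) and Ndufaf8 at 0.72 (SE 0.35, edgeR adjusted p = 0.1003). The assembly factors held 2.99%, 1.56%, 1.40% and 1.73% of the members' 501, 2636, 6693 and 866 UMIs in plasma cells. With so few counts, the lack of calls does not show that they differ from the subunits.

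Ndufa1, an X-linked subunit needed to assemble complex I (chrX:37187588-37191238, GRCm38.p6), gave 120, 264, 185 and 203 CPM in plasma cells and 27.2, 63.1, 31.0 and 53.4 CPM in B cells. All 4 plasma values lay above all 4 B cell values (log2 change 2.46, SE 0.23, edgeR adjusted p = 7.42e-25). Atp5g1 (chr11:96072793-96075694) encodes the c subunit of the membrane rotor of the ATP synthase. It gave 45.1, 264, 166 and 233 CPM in plasma cells and 29.5, 73.3, 43.6 and 58.0 CPM in B cells, a log2 change of 1.995 (SE 0.23). Its paralogues encode the same mature protein: Atp5g3 rose by 1.17 (SE 0.22), while Atp5g2, at 113, 233, 199 and 193 CPM in plasma cells and 116, 221, 188 and 194 CPM in B cells, did not pass the test (0.29, SE 0.21). The difference between the paralogues' changes was not tested.

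Ndufa4 (chr6:11900372-11907450) gave 113, 773, 402 and 436 CPM in plasma cells, a log2 change of 1.75 (SE 0.21) from B cells and a rise in each of the 4 libraries. Uqcrq, a small subunit of complex III, gave 45.1, 246, 251 and 152 CPM in plasma cells and 50.3, 79.5, 69.7 and 79.9 CPM in B cells. It rose by 1.57 (SE 0.23), though not in Smc3-WT replicate 1. Plasma cells held 501 UMIs over all members in that library and 866 in Smc3-cKO replicate 2, so single values there rest on few UMIs. Ndufc1, Ndufs6, Atp5j2 and Ndufa11 rose by 1.46 to 1.54 log2 units, Ndufa11 in 3 of 4 libraries. Not every abundant subunit took part: Atp5a1, which encodes the alpha subunit of the catalytic head, gave 75.2, 215, 261 and 193 CPM in plasma cells and 159, 226, 193 and 222 CPM in B cells (log2 change 0.15, SE 0.22). Ndufs1, the largest core subunit of complex I, was at 45.1, 43.9, 47.5 and 91.2 CPM in plasma cells and 68.1, 70.0, 74.5 and 82.9 CPM in B cells (-0.24, SE 0.29).

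Summed over all members, plasma cells had 3765, 11585, 9931 and 8780 CPM, which is 0.85, 1.57, 1.80 and 1.31 times the B cell level of the same library. Smc3-WT replicate 1 was the library in which plasma cells were not above B cells. Per cell, plasma cells carried 22.8, 94.1, 101 and 48.1 UMIs of these genes and B cells 14.3, 22.04, 24.9 and 19.7. Immunoglobulin constant and Jchain transcripts took 362781, 248292, 256266 and 281717 CPM of the plasma cell sums. The plasma class held 22, 28, 66 and 18 cells, and 20 members were called without Smc3-cKO replicate 1 and 26 without Smc3-WT replicate 2, all of them rises and all among the 41. Scaled to total UMIs alone, the median of all genes moved from -0.23 to -0.48 and that of the members from 0.72 to 0.48. The number of members called then went from 41 to 32, and the share of rises among all calls from 43.1% to 30.0%. The 13 mitochondrially encoded genes of the same complexes had a median log2 change of -0.05, with 0 calls and 0 at an unadjusted p under 0.05 by edgeR, whereas 19 of 78 mitochondrial ribosomal protein genes rose and 1 fell.

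Cycling B cells, gated as B cells with at least 2 of 6 mitotic markers, also had higher levels of the members. Of 82 members tested, 55 rose and 0 fell, where 13.4% of all 13563 genes rose and 8.32% fell. The median log2 change was 0.57 over the members and -0.01 over all genes. In complex I 23 of 37 genes rose, in complex III 5 of 8, in complex IV 11 of 12 and in complex V 16 of 17, and again none of the 8 assembly factors. The assembly factors held 1.44% to 2.45% of the members' UMIs in cycling B cells. Summed over the members, cycling B cells had 5070, 11973, 8481 and 12598 CPM, between 1.14 and 1.88 times the B cell level, above it in each of the 4 libraries.

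Atp5g1 was again among the genes with the largest rise, at 36.4, 207, 97.6 and 151 CPM in cycling B cells (log2 change 1.09 from B cells, SE 0.18, adjusted p = 0.00214 by edgeR). Here both paralogues rose too, Atp5g3 by 0.86 (SE 0.17) and Atp5g2 by 0.72 (SE 0.15). Uqcr10, a small complex III subunit, rose by 1.08 (SE 0.20) to 44.8, 201, 103 and 229 CPM. Atp5o, the OSCP subunit that ties the head of the ATP synthase to its stalk, gave 48.1, 94.3, 90.7 and 97.8 CPM in cycling B cells and 31.1, 43.5, 38.6 and 40.9 CPM in B cells, so all 4 values were higher (1.03, SE 0.14). Ndufab1, the mitochondrial acyl carrier protein, rose by 0.95, Ndufc2 by 0.94, Atp5j by 0.91, Cox5b by 0.91 and Ndufa4 by 0.90. Cox4i1, the ubiquitous form of a core-bound complex IV subunit, rose by 0.45 (SE 0.11), and Ndufs1 did not pass the test (-0.08, SE 0.13). Cytosolic ribosomal protein genes also rose, 28 of 82, as did 28 of 78 mitochondrial ribosomal protein genes and 8 of 19 glycolytic genes. The mitochondrially encoded genes had 0 calls and 0 at an unadjusted p under 0.05 (edgeR), with a median of -0.09.

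Transcripts known from other classes were also found in cycling B cells. Erythroid markers summed to 546, 735, 352 and 3.49 CPM there and to 153, 14.4, 45.9 and 3.71 CPM in B cells. Igha, an immunoglobulin abundant in plasma cells, was among the 10 genes that marked the class most. Whether cycling B cells made these transcripts themselves was not tested. Median UMIs per cell were 3189.5, 8229.5, 8395 and 10499.5, against 2756, 2589, 4142 and 2532 in B cells. With every cell that held a UMI of an erythroid marker removed, 38 members rose, all of them among the 55; in plasma cells 40 of the 41 remained. Doublet calling marked between 1.03% and 6.41% of cells where 7.26% to 12.9% were expected from the loading, so doublets remain, and their part in the result was not tested. Without Smc3-WT replicate 2 or Smc3-cKO replicate 1, 23 members were called in each case, and without Smc3-cKO replicate 2, 30 were, all of them rises and all among the 55. With no block for the library, 2 were.

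**Figure D3:**
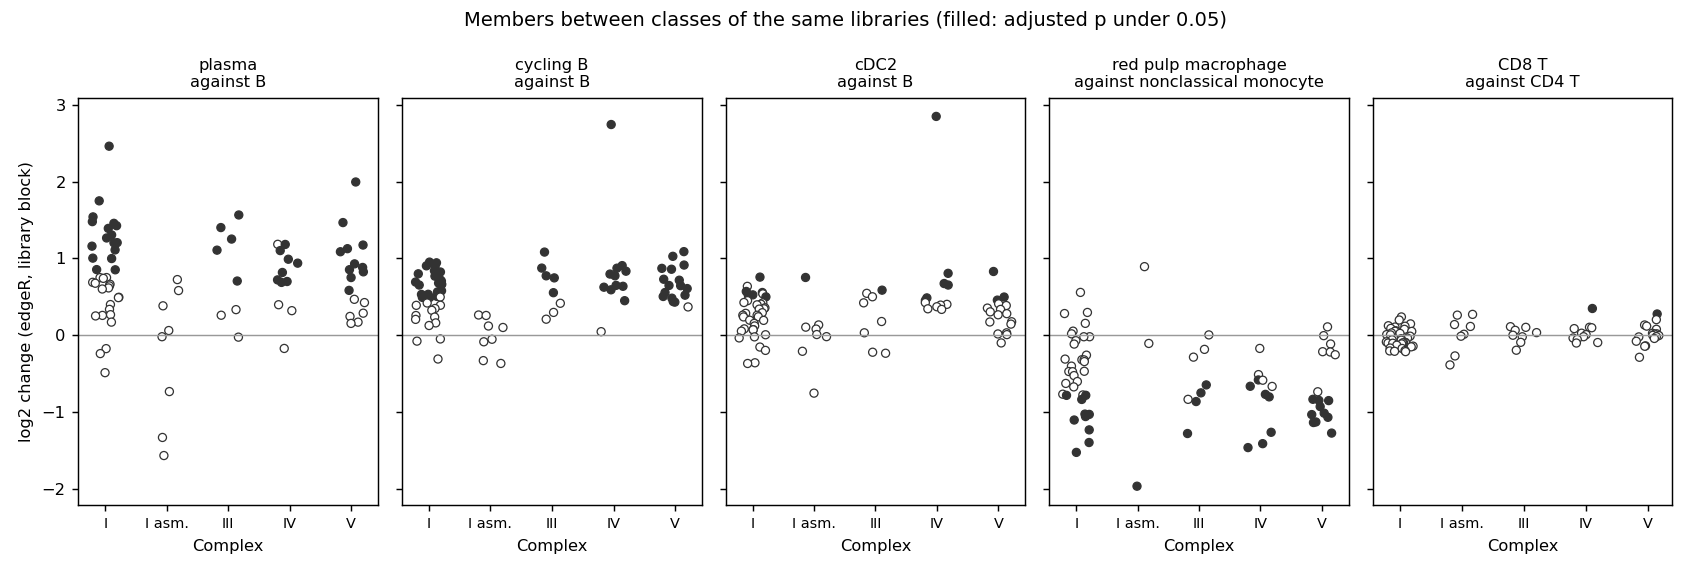
Log2 change of each member between 2 classes of the same libraries (y axis, edgeR with the library as a block), by complex on the x axis (I asm., assembly factors of complex I). Filled points passed the adjusted threshold of 0.05: 41 rises in plasma cells, 55 in cycling B cells and 17 in cDC2, each against B cells, 32 falls in red pulp macrophages against nonclassical monocytes, and 2 rises in CD8 against CD4 T cells.

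Red pulp macrophages had lower levels than nonclassical monocytes. Of 74 members tested, 0 rose and 32 fell, where 20.5% of all 6745 genes rose and 19.9% fell, and the median log2 change was -0.64 over the members and 0.00 over all genes. In complex I 10 of 35 genes fell, in complex III 4 of 8, in complex IV 7 of 11, in complex V 10 of 17, and 1 of 3 assembly factors tested. Summed over the members, red pulp macrophages had 4867, 5440, 4126 and 8582 CPM and nonclassical monocytes 5894, 9146, 10072 and 8317 CPM. Smc3-cKO replicate 2, with 36 macrophages, was the library in which the macrophages were not lower.

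Ndufaf7, a methyltransferase that acts early in complex I assembly (chr17:78937106-78948052), gave 15.3, 18.3, 9.81 and 8.53 CPM in red pulp macrophages and 54.0, 60.7, 44.1 and 54.5 CPM in nonclassical monocytes. All 4 values were lower (log2 change -1.96, SE 0.40, edgeR adjusted p = 0.000387). The macrophages held 4764, 1188, 1682 and 1006 UMIs over all members, so the lowest values of single genes rest on very few UMIs. Ndufa11, a membrane subunit of complex I, fell by 1.52 on the log2 scale (SE 0.37), from 38.6, 96.4, 104 and 65.8 CPM in the monocytes to 23.5, 9.16, 29.4 and 42.7 CPM in the macrophages. Cox4i1 gave 192, 165, 152 and 196 CPM in macrophages and 359, 439, 502 and 372 CPM in monocytes, a range that did not overlap (-1.26, SE 0.21). The complex IV subunits Cox6a1 and Cox5b changed by -1.46 and -1.41, Ndufa6 by -1.40, Uqcrfs1, the Rieske iron-sulphur protein of complex III, by -1.28, and Atp5mpl by -1.27. Uqcrfs1 was lower in 3 of 4 libraries and the other named genes in all 4.

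Some members did not follow. Atp5f1 changed by -0.0049 (SE 0.24), Ndufs1 by -0.02 (SE 0.32) and Atp5g1 by -0.11 (SE 0.38) between these classes, and Ndufaf2 by 0.89 (SE 0.46, adjusted p = 0.13). In the same comparison 60 of 82 cytosolic ribosomal protein genes and 10 of 13 glycolytic genes tested fell, and the 13 mitochondrially encoded genes had 0 calls and 0 at an unadjusted p under 0.05 (edgeR), with a median of 0.25. The 32 falls became 9 without Smc3-cKO replicate 1 and 15 without Smc3-WT replicate 2, all among the 32, and 16 by DESeq2, also among them.

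Conventional type 2 dendritic cells (cDC2) were set against B cells, and 17 of 82 members rose and 0 fell, where 16.6% of all 13306 genes rose and 16.1% fell. The members' count is near the share of all genes that rose. The median log2 change was 0.30 over the members and -0.11 over all genes. Complex IV gave 6 of 12, complex I 6 of 37, complex V 3 of 17, complex III 1 of 8 and the assembly factors 1 of 8. Atp5h, the d subunit of the ATP synthase stalk, gave 180, 179, 251 and 229 CPM in cDC2 and 99.6, 137, 91.8 and 114 CPM in B cells. All 4 cDC2 values lay above all B cell values (log2 change 0.83, SE 0.17, adjusted p = 0.000672 by edgeR). Cox5a, a complex IV subunit, gave 115, 215, 230 and 182 CPM against 82.6, 123, 79.6 and 110 CPM (0.81, SE 0.17), and Ndufb8 rose by 0.76, Cox4i1 by 0.67, Cox5b by 0.65, Uqcr11 by 0.59, Ndufa13 by 0.57 and Ndufa6 by 0.56. Omitting Smc3-WT replicate 1 turned the 17 rises into 29. Omitting the other Smc3-WT library left 5, and omitting either Smc3-cKO library left 6 (replicate 1) or 7 (replicate 2), all of them rises, and 7 with no block for the library and 9 by DESeq2. Cox5b was higher in 3 of the 4 libraries and the other named genes in all 4. All 13 mitochondrially encoded genes of the same complexes fell in cDC2 (median log2 change -0.72).

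The start-site regions of the members were searched for 3 sequence motifs. RefSeq gave a region of 300 bases, from 250 before to 50 after the start, for 72 of the 88 members and 27025 genes in all (GRCm38.p6). The motif of NRF1, a transcription factor named for its sites in respiratory chain genes, was searched as the 10 letters in capitals in the Ndufa11 line, which read the same on both strands. It was found in 7 of 72 members (9.72%) and in 1.07% of all genes: Atp5g2, Atp5k, Cox6a1, Ndufa11, Ndufaf4, Ndufaf5 and Uqcrc1. An ETS-family motif, CCGGAAGT or ACTTCCGG on the other strand, as bound by the respiratory factor GABP (NRF-2), was found in 5 members (6.94%) and in 4.31% of all genes. A YY1 motif, ATGGCGGC or GCCGCCAT on the other strand, was found in 7 members (9.72%) and in 2.60% of all genes. No member held more than 1 of the 3 motifs. A match is a stretch of letters and not a measured binding site.

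The 250 bases before the start of 4 members named above are shown because they hold these motifs. Ndufa11 (plus strand, chr17:56717512-56717761) and Cox6a1 (minus strand, chr5:115348959-115349208) were both among the falls in red pulp macrophages and hold the NRF1 letters. Atp5h (minus strand, chr11:115419920-115420169) and Uqcr11 (minus strand, chr10:80406822-80407071) were both among the rises in cDC2 against B cells and hold the ETS letters. Each is printed 5′ to 3′ on the gene's strand, from RefSeq, GRCm38.p6, with the motif in capitals.
Ndufa11: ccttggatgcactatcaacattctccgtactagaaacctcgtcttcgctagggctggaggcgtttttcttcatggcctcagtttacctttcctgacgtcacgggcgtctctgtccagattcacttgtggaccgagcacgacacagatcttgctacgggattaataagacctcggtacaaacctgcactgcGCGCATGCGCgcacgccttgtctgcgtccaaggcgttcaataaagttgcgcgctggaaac
Cox6a1: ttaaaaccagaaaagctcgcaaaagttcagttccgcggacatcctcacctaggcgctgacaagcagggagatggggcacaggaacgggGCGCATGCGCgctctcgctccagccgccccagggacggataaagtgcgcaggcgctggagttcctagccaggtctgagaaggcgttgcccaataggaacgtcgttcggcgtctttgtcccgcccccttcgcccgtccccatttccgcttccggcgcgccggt
Atp5h: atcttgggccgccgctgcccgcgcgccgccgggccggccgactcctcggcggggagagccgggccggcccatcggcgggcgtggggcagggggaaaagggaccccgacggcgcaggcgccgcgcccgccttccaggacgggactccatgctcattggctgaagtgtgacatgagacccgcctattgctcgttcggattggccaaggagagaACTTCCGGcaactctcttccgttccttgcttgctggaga
Uqcr11: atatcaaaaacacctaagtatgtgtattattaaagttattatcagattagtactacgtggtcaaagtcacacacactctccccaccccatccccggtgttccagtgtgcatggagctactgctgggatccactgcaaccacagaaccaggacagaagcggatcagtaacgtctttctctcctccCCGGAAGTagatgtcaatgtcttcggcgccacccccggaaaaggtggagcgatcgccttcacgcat
The NRF1 letters begin 60 bases before the start of Ndufa11 and 162 before that of Cox6a1, and the ETS letters 39 bases before the start of Atp5h and 66 before that of Uqcr11. All 4 genes also rose in plasma cells against B cells, Cox6a1 by 1.18 (SE 0.23), Ndufa11 by 1.46 (SE 0.31), Atp5h by 0.75 (SE 0.22) and Uqcr11 by 1.40 (SE 0.24), and all 4 rose in cycling B cells. They were picked among genes already called. Atp5g2, which also holds the NRF1 letters, rose in cycling B cells but did not pass the test in plasma cells. Whether members with a motif changed more often than the others was not tested. In cDC2 against B cells Ndufa11 did not pass the test (0.08, SE 0.27).

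Among the dendritic cells, conventional type 1 cells (cDC1) had higher levels than cDC2 in 3 of 74 members tested and lower in 0, where 8.48% of all 6026 genes rose and 9.94% fell. The 3 were Atp5g1 (log2 change 1.02, SE 0.24, adjusted p = 0.00445), Atp5g3 (0.77, SE 0.22, adjusted p = 0.018) and Cox7b (0.67, SE 0.22, adjusted p = 0.0394 by edgeR), each higher in all 4 libraries. Atp5g1 was at 48.2, 148, 109 and 156 CPM in cDC1 and 19.2, 73.8, 61.7 and 84.8 CPM in cDC2. The median log2 change was 0.31 over the members and 0.03 over all genes, with 63 of 74 members and 3151 of 6026 genes above 0. These 3 of 74 are below the share of all genes that rose. DESeq2 called 0 of them, as did edgeR with no block for the library, and 6 members rose without Smc3-cKO replicate 1. The cDC1 class held 42, 46, 29 and 17 cells.

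Plasmacytoid dendritic cells (pDC), the main producers of type I interferon, were lower than cDC2 in 3 of 75 members and higher in 0, where 14.9% of all 6581 genes rose and 15.3% fell. Cox5a gave 23.6, 136, 57.6 and 173 CPM in pDC and 115, 215, 230 and 182 CPM in cDC2 (log2 change -0.995, SE 0.28, adjusted p = 0.012). Ndufb8 changed by -0.79 (SE 0.29, adjusted p = 0.0478) and Cox7a2l, which takes part in joining complexes III and IV into supercomplexes, by -0.72 (SE 0.19, adjusted p = 0.00882 by edgeR). All 3 were lower in each of the 4 libraries. Their number is below the share of all genes that fell, and with no block for the library there were 0. Cox6a2, the muscle form of a complex IV subunit that the name rule leaves out, had its highest level in pDC, at 64.8, 598, 355 and 326 CPM there and between 1.16 and 13.01 CPM in B cells. NK cells gave 2.59, 8.85, 39.7 and 99.7 CPM.

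T cells and NK cells differed little in these genes. CD8 T cells had 2 of 81 members higher than CD4 T cells and 0 lower, where 9.65% of all 11274 genes rose and 9.14% fell. Cox8a gave 80.5, 284, 155 and 190 CPM in CD8 and 78.2, 216, 124 and 147 CPM in CD4 T cells (log2 change 0.35, SE 0.06, adjusted p = 0.00101 by edgeR), and Atp5g1 rose by 0.28 (SE 0.09, adjusted p = 0.0447), in 3 of the 4 libraries. NK cells had 2 members higher and 4 lower than CD8 T cells of 81 tested, where 15.5% of all 9993 genes rose and 17.4% fell (32.9% either way). Cox7a2l gave 123, 156, 157 and 124 CPM in NK and 138, 246, 233 and 204 CPM in CD8 T cells (log2 change -0.61, SE 0.12, adjusted p = 0.00123). Atp5g1 changed by -0.58 (SE 0.16), Cox7b by -0.42 (SE 0.12) and Ndufab1 by -0.55 (SE 0.19), each lower in all 4 libraries. Ndufb11 (0.49, SE 0.12) and Ndufb7 (0.43, SE 0.13), both membrane-arm subunits of complex I, were higher in NK cells in all 4 libraries. The counts in both lymphocyte comparisons are below the share of all genes.

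Monocytes and neutrophils gave few calls. Classical monocytes had 1 member higher and 2 lower than nonclassical monocytes of 76 tested, where 9.71% of all 6590 genes rose and 9.23% fell. Ndufb3 rose by 0.66 (SE 0.17, adjusted p = 0.00762), and Cox6a1 (log2 change -0.67, SE 0.19) and Cox5a (-0.46, SE 0.14) fell, each in all 4 libraries. There were 7 calls when Smc3-WT replicate 1 was omitted, 0 when the other Smc3-WT library was and 1 when Smc3-cKO replicate 2 was. Neutrophils had 3 members lower than classical monocytes and 0 higher of 72 tested, where 19.9% of all 6370 genes rose and 18.2% fell. These were Ndufc2 (-1.47, SE 0.43, adjusted p = 0.0171), Ndufb5 (-1.28, SE 0.41, adjusted p = 0.0273) and Ndufaf7 (-1.48, SE 0.41, adjusted p = 0.0129 by edgeR). Ndufaf7 gave 17.1, 17.7, 14.8 and 12.4 CPM in neutrophils and 41.7, 28.3, 54.9 and 61.4 CPM in classical monocytes, so it was lower in all 4 libraries. The neutrophils held 2376, 947, 3685 and 1228 UMIs over all members, so these low values rest on few UMIs. There were 16 falls when Smc3-WT replicate 1 was omitted, 1 when the other Smc3-WT library was and 0 when Smc3-cKO replicate 2 was. Omitting Smc3-cKO replicate 1, the calls turned round, with 2 members higher and 0 lower. Scaled to total UMIs alone, the median of all genes in that comparison moved from -0.04 to -0.25 and 10 members fell; the share of rises among all calls went from 52.3% to 39.5%.

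**Figure D4:**
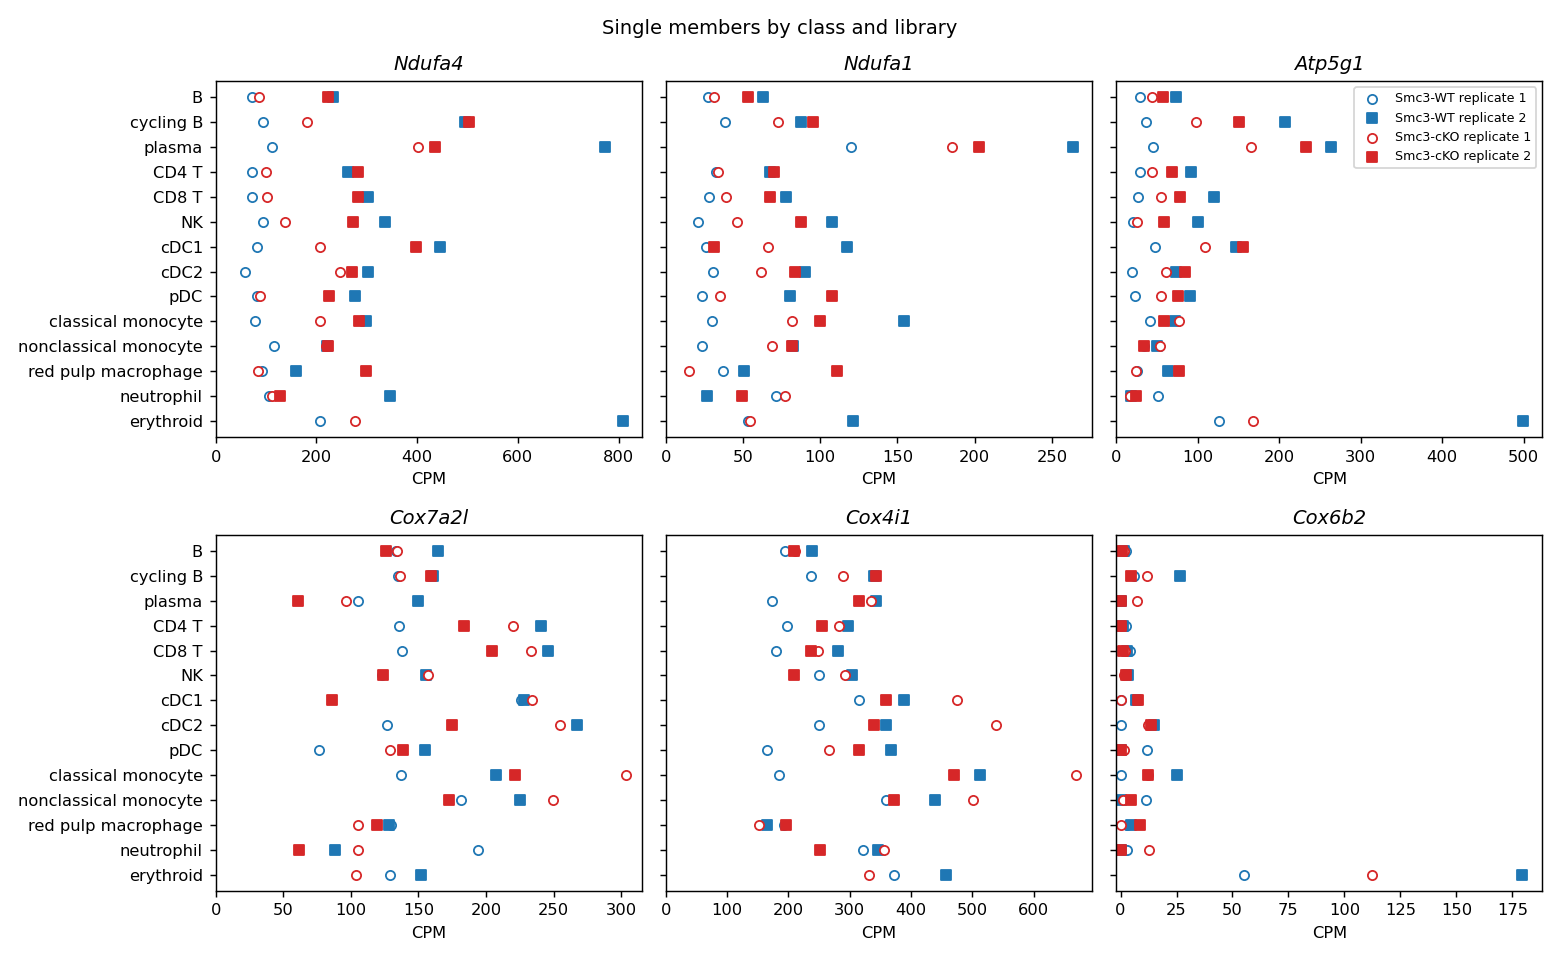
Level of 6 members in 14 gated classes; the x axis gives CPM and each point is 1 library (erythroid cells of Smc3-cKO replicate 2, with 7 cells, are not drawn). Ndufa1 and Atp5g1 are higher in plasma cells than in B cells in all 4 libraries, Ndufa4 separates replicates 1 from replicates 2 in B cells, and Cox6b2 is highest in erythroid cells among the classes drawn.

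Tissue forms of complex IV subunits were mostly absent among the members, which leave out Cox6a2. Cox7b2, Cox8b and Cox8c had 0 UMIs, Ndufa4l2 had 3, Cox4i2 had 18 and Cox7a1 had 38 over all cells kept, while their widely expressed counterparts Cox8a, Ndufa4, Cox4i1 and Cox7a2 were measured in every class. Among the members, Cox6b2, known as the testis form of a complex IV subunit, was the exception. It gave 55.2, 179, 112 and 148 CPM in erythroid cells (378, 73, 333 and 7 cells) and between 0.716 and 2.53 CPM in B cells. In cycling B cells it was at 5.85, 26.5, 11.8 and 4.66 CPM, a log2 change of 2.74 (SE 0.50) from B cells, in the class that also carried erythroid markers. Erythroid cells had 8849, 18742, 10945 and 20118 CPM over all members, above every one of the 13 classes compared in 3 libraries and below classical monocytes (11687 CPM) in Smc3-cKO replicate 1.

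Between genotypes, no member passed the test in any of the 12 classes with at least 20 cells in each library. edgeR called 0 members in each, and DESeq2 also 0. The share of all genes called either way by edgeR was 0% in B cells, cycling B cells, CD4 T cells, CD8 T cells, all cDC together, pDC, classical monocytes and neutrophils, 0.0538% in NK cells, 0.609% in cDC2 (0.0761% higher and 0.533% lower), 0.0179% in nonclassical monocytes and 0.0179% in red pulp macrophages. At an unadjusted p under 0.05, edgeR gave 1 member in cDC2, 4 in classical monocytes, 6 in nonclassical monocytes and 0 in the other 9 classes. In those 3 classes 622 of 6568, 189 of 7201 and 154 of 5591 genes passed that level. A p that misses the threshold with 2 libraries each does not show that the genotypes act alike.

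The median log2 change of the members in the libraries labelled Smc3-cKO over those labelled Smc3-WT was 0.46 in cDC2, 0.40 in classical monocytes, 0.29 in nonclassical monocytes and 0.29 in cycling B cells. It was 0.01 in B cells, -0.01 in pDC and -0.28 in neutrophils, and the medians over all genes tested lay between -0.04 and 0.04. In cDC2, Uqcrb, a complex III subunit, gave 19.2, 57.4, 119 and 61.9 CPM (log2 change 0.97, SE 0.52), with the Smc3-cKO values above both others. Ndufb10 gave 30.7, 50.8, 103 and 66.0 CPM (0.88, SE 0.42), and Atp5j gave 34.5, 82.0, 132 and 108 CPM (0.88, SE 0.40), with adjusted p-values of 0.640, 0.568 and 0.550 for the 3 genes (edgeR). Uqcrq, chosen after its values were seen, was the member with an unadjusted p under 0.05 there, at 61.3, 80.3, 148 and 121 CPM. For Cox7a2 the genotypes overlapped, at 69.0, 187, 107 and 153 CPM. In B cells Atp5mpl gave 64.6, 122, 115 and 123 CPM (0.31, SE 0.33) and Cox7a2l gave 134, 164, 134 and 126 CPM (-0.22, SE 0.17), with the genotypes overlapping in both.

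Over the members tested in cDC2, 28 of 75 had both Smc3-cKO libraries above both Smc3-WT libraries and 0 had both below, where 20.8% of all genes lay above in this way and 19.6% below. In classical monocytes these were 20 and 0 of 75, against 15.5% and 15.1% of all genes, and in nonclassical monocytes 22 and 0 of 73, against 15% and 14.5%. In B cells 4 of 82 lay above and 1 below, against 12.5% and 11.6%. Neutrophils went the other way, with 2 above and 15 below of 62, against 12.2% and 16.3%. In cDC2 and classical monocytes, 65 of 75 and 69 of 75 members had their lowest value in Smc3-WT replicate 1, the library that was lowest in most classes; this is 86.7% and 92.0% of the members, where it is 30.2% and 35.6% of all genes tested.

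1 library decided whether members were called. Without Smc3-WT replicate 2, which leaves Smc3-WT replicate 1 as the sole Smc3-WT library and assumes that it varies as the pair of Smc3-cKO libraries does, 114 calls of members were made, summed over the 12 classes, all of them higher in the libraries labelled Smc3-cKO. A gene called in several classes counts once in each, and cDC2 cells are also among all cDC. Of the calls, 32 were in all cDC, 31 in cDC2, 32 in classical monocytes, 13 in CD8 T cells, 3 in CD4 T cells and 3 in nonclassical monocytes. In that fit, 10.9% of all genes tested were called in cDC2, 9.37% in all cDC, 6.71% in classical monocytes, 3.49% in CD8 T cells, 2.11% in CD4 T cells and 2.1% in nonclassical monocytes. Without Smc3-WT replicate 1 no member was called, and without Smc3-cKO replicate 1 there were 3, all in red pulp macrophages, where 2.88% of all genes tested were called. Ffar2, a marker used to gate all cDC and not to split off cDC2, differed between the genotypes in cDC2 (log2 change -2.17, SE 0.29, adjusted p = 0.0151 by edgeR). The markers that split off cDC2 did not pass the test by edgeR: Cd209a (1.95, adjusted p = 0.0637), Clec4a4 (-1.79, adjusted p = 0.0743), Clec10a (2.11, adjusted p = 0.230), Mgl2 (-0.22, adjusted p = 0.972) and Sirpa (-0.33, adjusted p = 0.832). The part that the make-up of the gate had in the members' values was not tested.

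**Figure D5:**
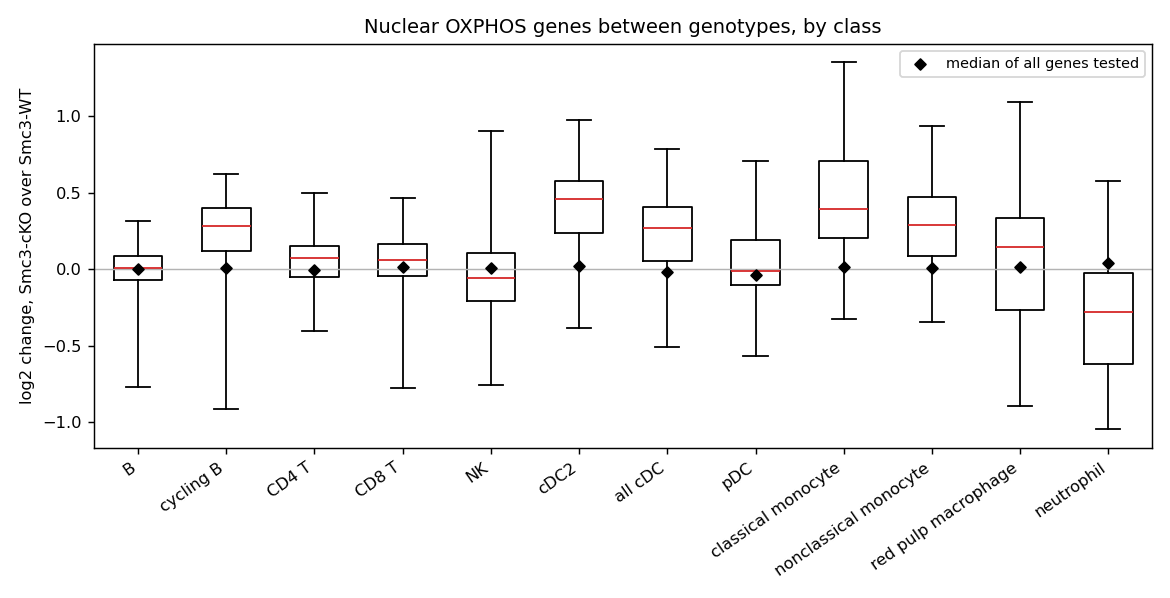
Log2 change of the members between libraries labelled Smc3-cKO and Smc3-WT (y axis, edgeR) in 12 classes; the box spans the middle 50% of the members tested, the red line is their median, the whiskers reach the lowest and highest member, and the diamond is the median of all genes tested. The members' median is 0.46 in cDC2, 0.01 in B cells and -0.28 in neutrophils, and no member passed the threshold in any class.

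The difference of the genotype change between classes was tested directly for 3 pairs. No member passed in cDC1 against cDC2 (0 of 74), in cDC2 against B cells (0 of 82) or in pDC against cDC2 (0 of 75) by edgeR, where 38 of 6026, 307 of 13306 and 41 of 6581 genes did. At an unadjusted p under 0.05 these tests gave 3, 14 and 2 members, where they gave 483, 1313 and 572 of all genes tested. The median difference over the members was -0.44 log2 units for cDC1 against cDC2, 0.43 for cDC2 against B cells and -0.39 for pDC against cDC2, and over all genes -0.08, 0.0079 and -0.03. The lowest adjusted p of a member was 0.0936, in cDC2 against B cells.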

How the data were processed

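Red-cell-depleted splenocytes of 2 Smc3-WT and 2 Smc3-cKO libraries were used. The authors deposited UMI counts for each cell, made with Cell Ranger 7.0.0, per the file headers, on mm10, per the submitters' processing notes; whether intronic reads were counted is not given in the sources used here. The members and lists were chosen with earlier results of these data known. Cells under 200 genes or over 10% mitochondrial UMIs were removed, and doublets were called with Scrublet (scanpy 1.11.5). Cells were assigned to the lineage with most detected markers (at least 3, with a lead of at least 1); these thresholds were set after cell numbers and marker levels were seen. UMIs were summed per class and library and tested with edgeR 4.0.16 (quasi-likelihood, TMM scaling, Benjamini-Hochberg over all genes tested): genotypes in classes with at least 20 cells in each library, classes in those with at least 15, with the library as a block. An SE is the log2 change divided by the square root of F. Named genes were the members past the threshold, at most 8 per direction by size, averaging 50 CPM or more in the higher group; where fewer than 4 passed, also the 3 largest changes per direction; and fixed paralogues and assembly factors. Genes with a near-identical copy are uncertain. The test was checked on simulated data drawn from a pooled profile. That simulation held no library shift shared by many genes, so it does not cover the one seen in Smc3-WT replicate 1. Alternatives were DESeq2 1.42.0, no TMM scaling, no low-count filter, other gates and cell filters, the replicate block and leaving out each library. Library totals ranged from 40367056 to 51299056 UMIs.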

Additional observations from a re-analysis of the deposited data

How the results depend on the processing

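No member was called between genotypes under any alternative except when a library was left out, which gave 0 to 114 calls of members summed over the 12 classes. Blocking by replicate number gave 0 calls. A check of same-numbered libraries, a correlation over the genes tested, gave -0.17 in neutrophils and positive values in every other class, up to 0.58 in B cells. Over the members it ran from 0.013 in classical monocytes to 0.67 in B cells. The labels state no pairing, and these values do not settle whether the numbers pair the libraries. Crossing the numbers in neutrophils, also chosen after the data were seen, gave 0 calls. Leaving out each library gave 20 to 46 calls for plasma cells, 23 to 63 for cycling B cells, 1 to 3 for CD8 against CD4 T cells, 4 to 9 for NK cells, 2 to 6 for cDC1, 2 to 4 for pDC, 0 to 7 for classical monocytes, 9 to 34 for red pulp macrophages, 0 to 16 for neutrophils and 5 to 29 for cDC2 against B cells. With no replicate block for the library, calls were 2 for cycling B cells, 0 for CD8 against CD4 T cells, 1 for NK cells, 0 for cDC1, 0 for pDC, 0 for classical monocytes and 7 for cDC2 against B cells. DESeq2 gave 1 call for CD8 T cells, 2 for NK cells, 0 for cDC1, 1 for pDC, 0 for classical monocytes, 16 for red pulp macrophages, 1 for neutrophils and 9 for cDC2. With no filter on low counts there were 5 for classical monocytes, 9 for neutrophils and 6 for cDC2 against B cells. Without TMM scaling there were 32 for plasma cells and 26 for red pulp macrophages. Without it neutrophils gave 10, and up to 20% mitochondrial UMIs gave 8. The stricter gate (at least 4 markers, lead 2) gave 10 for cDC1, 7 for neutrophils and 11 for cDC2 against B cells, and leaving immunoglobulin, haemoglobin and mitochondrial genes out gave 7 for the last. The cause of these shifts was not tested. Some small uncalled log2 changes turned sign. Between genotypes these were Cox7a2 in cDC2 (0.028 with the replicate block, -0.53 to 1.04 without a library) and, in classical monocytes, Ndufa1 (0.14 with the replicate block, -0.79 to 1.69 without a library), Ndufs4 (-0.34 to 0.094 without a library) and Ndufs5 (-1.005 to 0.59 without a library). Between classes they were, in cDC1 against cDC2, Ndufs5 (0.13 with the stricter gate, 0.055 without cells holding an erythroid UMI) and Ndufv2 (-0.46 to 0.17 without a library, 0.032 without those cells), and in pDC against cDC2, Ndufc1 (-0.0033 to 0.39 without a library). The removal of cells with an erythroid UMI was chosen after the data were seen. Small classes (17 or 18 cells in the smallest library) limit the precision.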
